A study of Mus musculus with 9 samples.

Results

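The miRNAs described here were the arms of miR-7 and of miR-671 on an array of hippocampal RNA. They were all array entries whose names begin with mmu-miR-7a-, mmu-miR-7b- or mmu-miR-671-, which gave 7 of the 1247 mouse miRNAs on the array. The guides are miR-7a-5p, miR-7b-5p and miR-671-5p, and the other arms of their hairpins are miR-7a-1-3p, miR-7a-2-3p, miR-7b-3p and miR-671-3p. The members were chosen by their names, and also because the miR-7 arms were known to vary strongly between these 9 arrays, so their spread is given as a description. The mice were male C57BL/6, about 8 weeks old when obtained. Oropharyngeal aspirations were given every second day over 4 weeks: saline to the 3 control mice, and fine particulate matter (PM2.5) to 6 others, of which 3 had a dose of 1 mg/kg bw and 3 one of 5 mg/kg bw. They were killed 18 h after the final dose, and each mouse gave 1 array. The comparisons ask whether the miRNAs of the hippocampus differed after PM2.5.

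miR-7 is a deeply conserved miRNA best known from neuroendocrine cells and neurons, where it is abundant in the pituitary, the hypothalamus and the pancreatic islets. In the brain it belongs to a circuit of noncoding RNAs. The circular RNA Cdr1as carries many sites that bind miR-7 and a nearly fully complementary site for miR-671-5p, through which miR-671-5p directs its cleavage, and the long noncoding RNA Cyrano has a highly complementary miR-7 site that leads to the decay of miR-7. An array of miRNAs measures neither Cdr1as nor Cyrano.

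All 7 arms have a mature sequence in RefSeq (GRCm38.p6). They are printed 5′ to 3′ with the seed, bases 2 to 8, in capitals, because the seeds show which arms share targets and because single bases separate several of the arms that the probes must tell apart.
mmu-miR-7a-5p: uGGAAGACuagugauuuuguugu
mmu-miR-7b-5p: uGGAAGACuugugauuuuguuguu
mmu-miR-7a-1-3p: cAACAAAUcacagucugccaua
mmu-miR-7a-2-3p: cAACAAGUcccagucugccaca
mmu-miR-7b-3p: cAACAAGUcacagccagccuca
mmu-miR-671-5p: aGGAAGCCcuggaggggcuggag
mmu-miR-671-3p: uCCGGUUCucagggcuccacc
The guides miR-7a-5p and miR-7b-5p share a seed that 0 other mouse miRNAs in the RefSeq table of 1679 mature names have. They differ by A10U, with positions counted from 1 at the 5′ end and the base of miR-7a-5p first, and by 1 further base at the 3′ end of miR-7b-5p. The seed of miR-671-5p differs from that of miR-7 by A7C. Among the other arms, miR-7a-2-3p and miR-7b-3p share a seed, and miR-7a-1-3p differs from miR-7a-2-3p by A7G, A10C and U21C.

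Mature miR-7a-5p is made from 2 hairpins and has the same sequence in both, at chr13:58392841-58392863 on the minus strand (Mir7-1) and at chr7:78888295-78888317 on the plus strand (Mir7-2). An array signal of miR-7a-5p therefore does not tell its hairpins apart, whereas their 3p arms differ. Mir7-1 lies within the span of Hnrnpk, which encodes an RNA-binding protein, and its miR-7a-1-3p is at chr13:58392800-58392821. Mir7-2 overlaps no other RefSeq gene, and its miR-7a-2-3p is at chr7:78888335-78888356. Mir7b (miR-7b-5p at chr17:56243017-56243040 and miR-7b-3p at chr17:56243055-56243076, plus strand) overlaps no other RefSeq gene either. Mir671 lies within the span of Chpf2, a glycosyltransferase gene, with miR-671-5p at chr5:24592132-24592154 and miR-671-3p at chr5:24592171-24592191 on the plus strand.

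On the array, 18 DNA probes measured these arms, and all 18 were complementary to the mature sequence of the arm they are named for. The probes of miR-7a-5p covered bases 3 to 23 and 2 to 23, and those of miR-7b-5p bases 2 to 23 and 1 to 23, so that each guide's probes had 1 mismatch to the other guide. Every miR-7 guide probe had at least 8 mismatches to any mature mouse miRNA outside these arms that was at least as long as the probe. Shorter miRNAs and alignments with gaps were not compared. The probes of miR-7a-2-3p were 14 and 15 bases long and had at least 2 mismatches to the other miR-7 3p arms. The 4 probes of miR-671-5p were 10 to 13 bases long and were complementary to its GC-rich 3′ end, with 1 mismatch or more to every other mature miRNA. How far labelled miR-7a-5p bound to the miR-7b-5p probes was not tested. The positions that the files give lay in the RefSeq miRNA of that name for 16 of the 18 probes. The exceptions were the 2 probes of miR-7a-1-3p, which are complementary to miR-7a-1-3p but are placed at chr13:58392847-58392865, over the miR-7a-5p arm of the same hairpin.

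Signals below are log2 normalized signals: the background-subtracted fluorescence summed over the probes of an arm and divided by the 75th percentile of its array, taken over the miRNAs detected on all 9 arrays. Between 410 and 436 miRNAs were detected per array, 0 spots were saturated, and 424 miRNAs, those with a detection call on every array of 1 group or more, entered the tests. Of the 7 arms, 6 were detected on all 9 arrays and were tested. The exception, miR-671-3p, was detected on 0 of 9 arrays, with raw signals of 3.15 to 6.70 units, and no change is given for it. Of the miRNAs listed as markers of neurons, 5 of 5 (miR-124-3p, miR-9-5p, miR-9-3p, miR-128-3p and miR-138-5p) were detected on all 9 arrays. Control replicate 1 and 5 mg/kg bw replicate 3 stood apart from the other 7 arrays: on the first principal component of the 424 tested miRNAs, which held 52.0% of their variance, both had a score of -0.57, and the others lay between -0.079 and 0.42. The labels do not mark these arrays as different. By the positions in the files, both lay in row 1 and column 1 of their slides, where no other array lay. In addition, 5 mg/kg bw replicate 3 was alone on a second slide. Whether the position plays a part was not tested.

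The guide miR-7a-5p was low on these 2 arrays and higher on the other 7. Its log2 signal was 0.36, 1.36 and 1.29 in control replicates 1 to 3, 1.50, 1.64 and 1.34 in those at 1 mg/kg bw, then 2.02, 1.56 and 0.13 in those at 5 mg/kg bw. The highest array, 5 mg/kg bw replicate 1, and the lowest, 5 mg/kg bw replicate 3, therefore belonged to the same dose group and differed 3.70-fold. Within the control group the highest and lowest arrays differed 2.01-fold, and at 1 mg/kg bw 1.23-fold. Both probes carried this spread, since the raw signal of the shorter ran from 144 to 568 units and that of the longer from 528 to 1670.

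The second guide, miR-7b-5p, followed nearly the same order of arrays. Its log2 signal was -0.78, 0.12 and 0.03 in the control arrays, 0.12, 0.29 and -0.12 in those at 1 mg/kg bw, then 0.63, 0.29 and -1.04 in those at 5 mg/kg bw. The same arrays were lowest and highest as for miR-7a-5p, and they differed 3.19-fold.

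The 3p arm of Mir7-2, miR-7a-2-3p, is usually regarded as the passenger strand, which is degraded while the guide is kept. Its log2 signal was -4.33, -3.25 and -3.34 in the control arrays, -3.07, -3.22 and -3.67 in those at 1 mg/kg bw, then -2.86, -2.96 and -4.39 in those at 5 mg/kg bw. It too was lowest on control replicate 1 and 5 mg/kg bw replicate 3 and highest on 5 mg/kg bw replicate 1, over a 2.87-fold range. Its raw signal, at 26.9 to 75.9 units, was above the lowest signal called detected on any array, which was 8.10 units at most.

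The 3p arm of Mir7-1, miR-7a-1-3p, did not share this spread. Its log2 signal was -1.63, -1.74 and -1.70 in the control arrays, -1.83, -1.86 and -1.66 in those at 1 mg/kg bw, then -1.73, -1.78 and -1.65 in those at 5 mg/kg bw. The whole range over 9 arrays was 1.17-fold, and the 2 arrays that were lowest for the guides were the 2 highest for this arm.

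The third 3p arm, miR-7b-3p, was dim, with raw signals of 15.1 to 24.7 units. Its log2 signal was -5.16, -4.74 and -4.75 in the control arrays, -4.74, -4.95 and -4.95 in those at 1 mg/kg bw, then -4.48, -4.72 and -4.70 in those at 5 mg/kg bw. It was lowest on control replicate 1 but not on 5 mg/kg bw replicate 3, and the arrays at 5 mg/kg bw lay above all 6 others.

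The guide miR-671-5p was nearly level over the arrays. Its log2 signal was -2.15, -2.27 and -2.41 in the control arrays, -2.02, -2.16 and -2.27 in those at 1 mg/kg bw, then -2.28, -2.24 and -2.21 in those at 5 mg/kg bw. The range over 9 arrays was 1.31-fold, and all 3 groups overlapped.

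**Figure D1:**
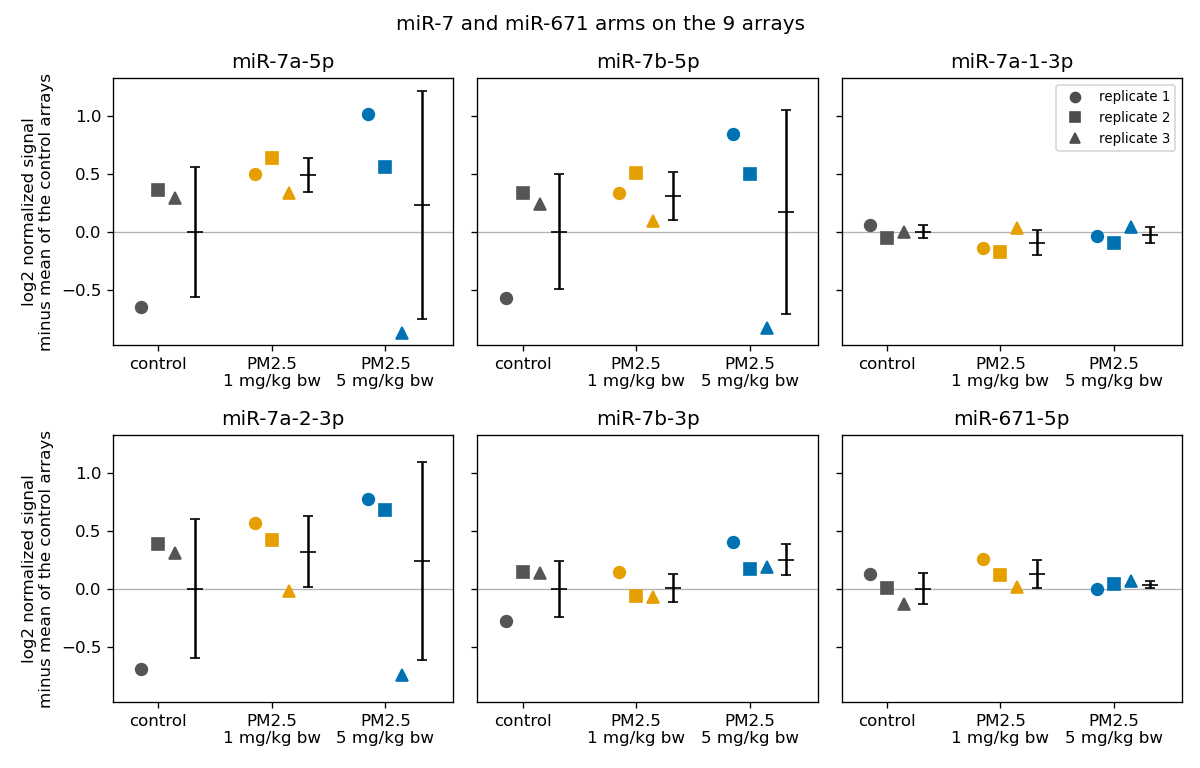
Log2 normalized signal of the 6 detected arms on each of the 9 arrays, minus the mean of the 3 control arrays; symbols mark the replicate number, and black bars give the mean ± SD of each group (n = 3). Control replicate 1 and 5 mg/kg bw replicate 3 are the lowest arrays for miR-7a-5p, miR-7b-5p and miR-7a-2-3p, whereas miR-7a-1-3p and miR-671-5p are nearly level.

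Set beside all tested miRNAs, the spread over 9 arrays placed the arms at opposite ends. The SD of miR-7a-5p was 0.61 on the log2 scale, the 11th highest of 424, that of miR-7a-2-3p 0.56 (15th) and that of miR-7b-5p 0.53 (18th). The median SD of the 424 was 0.15. The SD of miR-7b-3p was 0.20 (132nd), that of miR-671-5p 0.11 (299th) and that of miR-7a-1-3p 0.082 (359th). Most of this spread lay within the groups: the pooled SD within groups was 0.66 for miR-7a-5p, 0.63 for miR-7a-2-3p and 0.60 for miR-7b-5p.

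**Figure D2:**
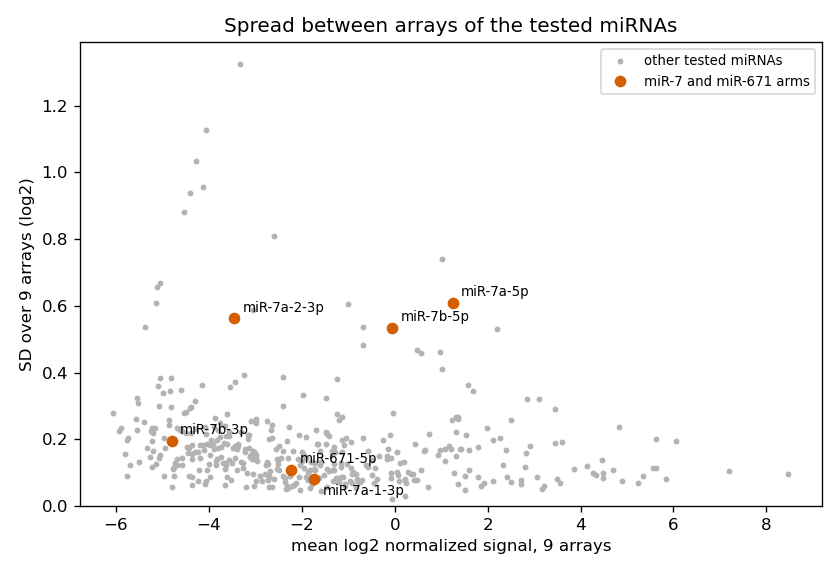
SD of the log2 normalized signal over 9 arrays against the mean log2 normalized signal for each of the 424 tested miRNAs; grey points are other miRNAs and orange points the arms of miR-7 and miR-671. The points of miR-7a-5p, miR-7b-5p and miR-7a-2-3p, with SDs of 0.53 to 0.61, lie far above the median of 0.15, and those of miR-7a-1-3p and miR-671-5p below it.

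Across the 9 arrays the 2 guides of miR-7 moved together. The Pearson correlation of miR-7a-5p with miR-7b-5p was 0.99 (two-sided exact permutation p = 2.48e-05, adjusted over 3 relations p = 7.44e-05), and Spearman's rho was 0.98 (exact permutation p = 4.96e-05, adjusted p = 0.000149). Over the 7 arrays left without control replicate 1 and 5 mg/kg bw replicate 3, the 2 arrays farthest from the median of miR-7a-5p, the Pearson correlation was 0.95 (exact permutation p = 0.00179). On deviations from the group means, which sum to 0 within each group, it was 1.00 (exact permutation within the groups, p = 0.00463, adjusted p = 0.0139). The points share the array, its scaling and its RNA, the guides differ at 1 of 23 shared bases, and the members were chosen because miR-7 varied, so that these p-values are not independent evidence.

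The passenger miR-7a-2-3p followed miR-7a-5p less closely once these arrays were left out. Over 9 arrays the Pearson correlation was 0.96 (two-sided exact permutation p = 0.000276, adjusted p = 0.000413) and Spearman's rho was 0.93 (exact permutation p = 0.00075, adjusted p = 0.00112). Over the 7 arrays Pearson's r was 0.74 and missed the threshold (exact permutation p = 0.0605), and rho was 0.86 (exact permutation p = 0.0238), so the linear relation rests in part on the low arrays. For miR-671-5p the Pearson correlation with miR-7a-5p was -0.12 (exact permutation p = 0.739) and rho was -0.10 (exact permutation p = 0.81), and over the 7 arrays Pearson's r was 0.20 (exact permutation p = 0.636). On deviations from the group means, Pearson's r with miR-7a-5p was 0.96 for miR-7a-2-3p (exact permutation within the groups, p = 0.0139). For miR-671-5p it was -0.38 (exact permutation within the groups, p = 0.204). No relation of miR-671-5p with miR-7a-5p was detectable with 9 arrays. As for the guides, the points of these pairs share the array, its scaling and its RNA. The members were chosen because the miR-7 arms varied, so the p-values for miR-7a-2-3p are not independent evidence. Over the 418 tested miRNAs outside these arms, the 95th percentile of Pearson's r with miR-7a-5p was 0.89.

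The 3p arm of Mir7-1 had a Pearson correlation with miR-7a-5p of -0.67 over 9 arrays and -0.30 over 7 (no test, since this pair was chosen after its values were seen). For miR-7b-3p the values were 0.45 and 0.62, likewise without a test.

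**Figure D3:**
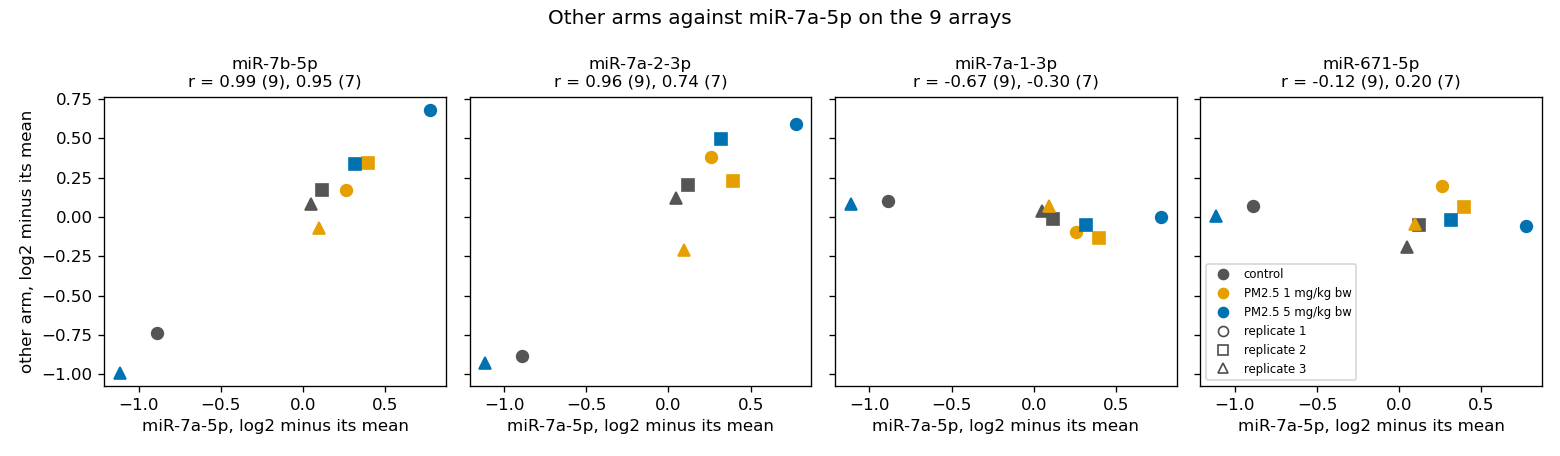
Log2 normalized signal of 4 arms (vertical axes) against that of miR-7a-5p (horizontal axes), each minus its own mean over 9 arrays; colours mark the group, symbols the replicate number, and r is Pearson's correlation over 9 arrays and over the 7 without the 2 lowest. The points of miR-7b-5p (0.99 and 0.95) and miR-7a-2-3p (0.96 and 0.74) rise with miR-7a-5p, those of miR-7a-1-3p fall slightly (-0.67 and -0.30), and those of miR-671-5p stay level (-0.12 and 0.20).

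At 5 mg/kg bw, 0 of the 6 tested arms reached an unadjusted p under 0.05 against the control in limma, where 9.43% of all 424 tested miRNAs did, and 0 passed after Benjamini-Hochberg adjustment (0% of all tested). The log2 signal of miR-7a-5p averaged 1.24 ± 0.99 (SD, n = 3) at this dose, beside 1.00 ± 0.56 (SD, n = 3) for the controls. The difference was 0.23 (limma, adjusted p = 0.884, standard error 0.46), with a 95% interval of the fold change from 0.567 to 2.44. The change of miR-7b-5p was 0.17 (95% interval of the fold change 0.582 to 2.18) and that of miR-7a-2-3p 0.24 (0.590 to 2.36). For the level arms the intervals were narrow: the log2 change was 0.035 for miR-671-5p (fold change between 0.888 and 1.18) and -0.030 for miR-7a-1-3p (0.866 to 1.11).

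The dim miR-7b-3p was the exception in overlap at 5 mg/kg bw. The log2 difference was 0.25 (limma, unadjusted p = 0.091 and adjusted p = 0.567, standard error 0.13), and its 3 arrays at 5 mg/kg bw lay above all 3 control arrays (two-sided exact permutation p = 0.1, the smallest that 3 against 3 arrays allow). The other 5 arms overlapped, and over all tested miRNAs 16.0% did not overlap between these groups. Under the normexp background correction, an alternative estimate of the background, the change of miR-7b-3p was -0.036, and without control replicate 1 it was 0.11. The median change was 0.20 over the 6 arms and -0.0035 over all tested miRNAs.

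At 1 mg/kg bw, 0 of the 6 tested arms reached an unadjusted p under 0.05, against 7.78% of all tested miRNAs, and 0 after adjustment, against 0.236% of all. The log2 signal of miR-7a-5p was 1.49 ± 0.15 (SD, n = 3), and its difference from the control, 0.49 (limma, adjusted p = 0.847, standard error 0.46), had a 95% interval of the fold change from 0.678 to 2.91. The changes were 0.31 for miR-7b-5p, 0.32 for miR-7a-2-3p, -0.094 for miR-7a-1-3p, 0.0024 for miR-7b-3p and 0.13 for miR-671-5p. All 6 arms overlapped with the control, and over all tested miRNAs 12.3% did not. The median change of the 6 arms was 0.22, against -0.032 over all tested miRNAs.

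Between the doses, 0 of the 6 arms differed at an unadjusted p under 0.05, against 3.77% of all tested miRNAs, and 0 after adjustment, against 0.236% of all. The change at 5 against 1 mg/kg bw was -0.26 for miR-7a-5p (limma, adjusted p = 0.995, standard error 0.46), -0.14 for miR-7b-5p and -0.082 for miR-7a-2-3p. It was 0.064 for miR-7a-1-3p, 0.25 for miR-7b-3p and -0.095 for miR-671-5p. The groups did not overlap for 1 of the 6 arms, miR-7b-3p (exact permutation p = 0.1), and for 7.31% of all tested miRNAs. The 2 comparisons with the control share the same 3 control arrays.

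**Figure D4:**
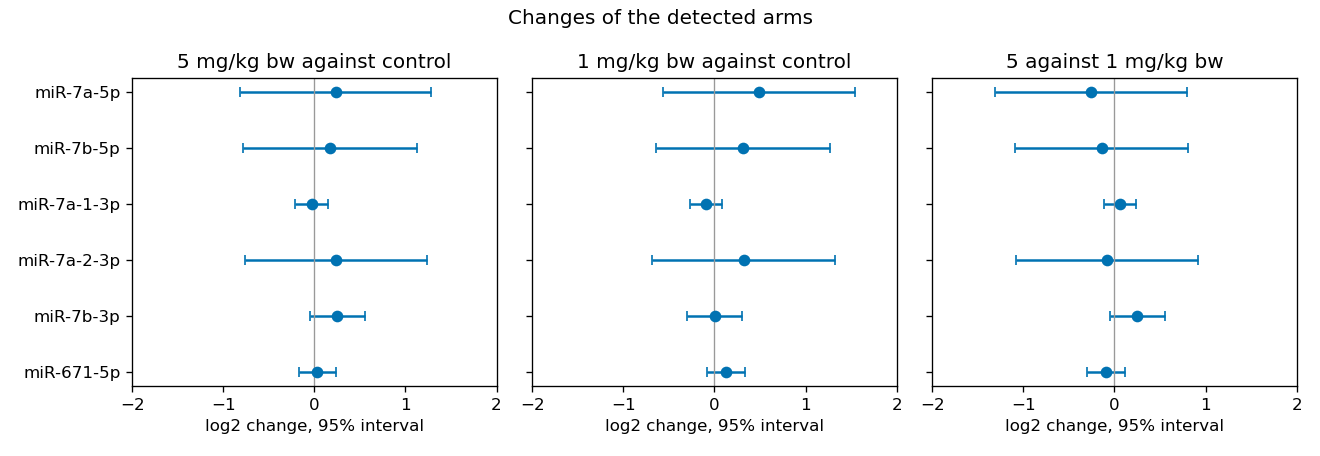
Log2 change of the 6 detected arms in each of the 3 comparisons (limma over 9 arrays, 3 per group), with 95% intervals as horizontal bars. Every interval includes 0, and those of miR-7a-5p, miR-7b-5p and miR-7a-2-3p are several times as wide as those of miR-7a-1-3p and miR-671-5p.

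The size and the sign of these changes moved with the arrays that stood apart. Without 5 mg/kg bw replicate 3, the change of miR-7a-5p at 5 mg/kg bw was 0.79 (limma, unadjusted p = 0.030 and adjusted p = 0.165, standard error 0.30) and that of miR-7b-5p 0.67 (unadjusted p = 0.039, adjusted p = 0.167 in limma). In that fit 120 of the 424 tested miRNAs (28.3%) had an unadjusted p under 0.05. Without control replicate 1 they were -0.091 and -0.12, and without 5 mg/kg bw replicate 1 they were -0.16 and -0.16. With both low arrays left out, an alternative chosen after their values were seen, the changes at 5 mg/kg bw were 0.46 for miR-7a-5p (unadjusted p = 0.024, adjusted p = 0.301 in limma), 0.38 for miR-7b-5p (unadjusted p = 0.047, adjusted p = 0.361 in limma) and 0.38 for miR-7a-2-3p (unadjusted p = 0.071), where 54 of the 424 (12.7%) had an unadjusted p under 0.05. In that fit the changes at 1 mg/kg bw were 0.17, 0.025 and -0.026, and those of miR-671-5p were 0.19 at the lower dose and 0.084 at the higher. The adjusted p of miR-7a-5p at 5 mg/kg bw ran from 0.165 to 0.998 over the 27 alternatives with a test.

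The position of the arrays also moved with the groups. On the first slide, all control arrays lay in row 1 together with replicate 1 of the 1 mg/kg bw group, and row 2 carried the remaining arrays of that dose with 5 mg/kg bw replicates 1 and 2. The second slide held 5 mg/kg bw replicate 3, also in row 1. With the row as a block, which pools it with row 1 of the first slide, the changes at 5 mg/kg bw were -0.32 for miR-7a-5p, -0.32 for miR-7b-5p and -0.13 for miR-7a-2-3p, and at 1 mg/kg bw they were -0.059, -0.18 and -0.046. On the first slide alone, an alternative chosen after these values were seen, the row as a block gave 0.80, 0.71 and 1.10 at the higher dose and 0.50, 0.33 and 0.57 at the lower (for miR-7a-5p at the higher, limma, unadjusted p = 0.183 and adjusted p = 0.470, standard error 0.54). With the slide as a block, 5 mg/kg bw replicate 3 carries no information, and the changes are those without it.

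**Figure D5:**
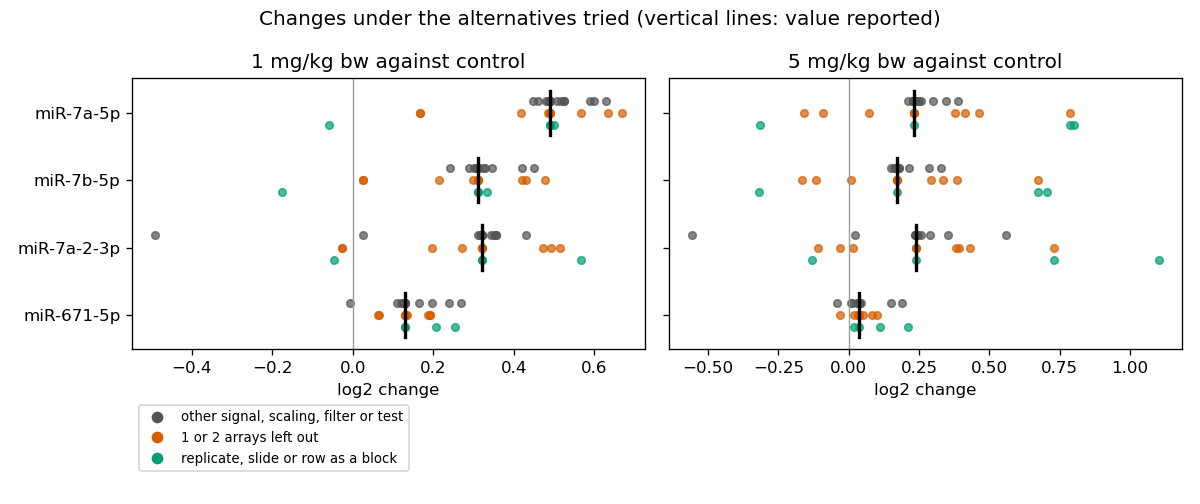
Log2 change of 4 arms at 1 and 5 mg/kg bw against the control under each alternative (points) and as reported (vertical lines); grey points are other signals, scalings, filters or tests, orange points leave out 1 or 2 arrays, and green points have the replicate number, slide or row as a block. For miR-7a-5p at 5 mg/kg bw the points run from -0.32 to 0.80.

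A scaling by 1 factor per array cancels in the difference between arms on the same array. At 1 mg/kg bw the log2 difference miR-7a-5p minus miR-7b-5p was 0.18 above that of the control, and the 3 arrays, at 0.17, 0.13 and 0.24, lay above the 3 control arrays, at -0.074, 0.027 and 0.048 around their mean (two-sided exact permutation p = 0.1, the smallest possible). The groups overlapped with quantile normalization, where the difference was 0.21, and in the deposited log2 table, where it was 0.18 (exact permutation p = 0.2 for each). At 5 mg/kg bw the difference was 0.062 above the control, with arrays at 0.17, 0.058 and -0.044 that overlapped with it (exact permutation p = 0.4). The difference miR-7a-5p minus miR-671-5p was above the control by 0.36 at the lower dose and by 0.20 at the higher (exact permutation p = 0.7 for each). At 5 mg/kg bw its arrays ran from -0.94 to 1.01 around the control mean. The difference miR-7a-5p minus miR-7a-2-3p was 0.17 above the control at 1 mg/kg bw (exact permutation p = 0.4), and at the higher dose it was -0.0051 (exact permutation p = 1). With 3 against 3 arrays, none of these 6 comparisons could reach the threshold.

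Outside the miR-7 and miR-671 arms, the tested miRNAs most like miR-7a-5p over the 9 arrays, of 418 compared, were miR-764-5p (Pearson's r 0.97), miR-431-5p (0.95) and miR-135a-5p (0.94). The median r of the 418 was -0.19, and the 95th percentile was 0.89. miR-764-5p, which lies in an intron of the serotonin receptor gene Htr2c, was detected on 7 of 9 arrays, and its raw signal was 9.42 units on control replicate 1 and 7.47 on 5 mg/kg bw replicate 3, the 2 arrays without a detection call, and between 26.8 and 39.1 on the others. miR-431-5p, of the imprinted Dlk1-Dio3 cluster, ran from a log2 signal of -2.98 on 5 mg/kg bw replicate 3 to -2.22 on 5 mg/kg bw replicate 1, and miR-135a-5p from -2.49 to -1.41 between the same arrays. Over the 7 arrays without the 2 lowest, r was 0.78, 0.96 and 0.89 for these 3.

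The miRNAs most like miR-671-5p were miR-3960 (r 0.74), miR-5126 (0.71) and miR-3102-5p (0.71), where the 95th percentile over the 418 was 0.52. These were selected as the highest of many correlations and are given without a test. The GC content was 100% for miR-5126, 72.7% for miR-3102-5p and 69.6% for miR-671-5p, with no value for miR-3960. Whether base composition plays a part in this likeness was not tested.

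Markers of other cell types and tissues also differed between the arrays. Of 6 miRNAs listed for pituitary and neuroendocrine tissue, 0 were detected on all 9 arrays and 2 (miR-141-3p and miR-200c-3p) on none, and miR-375-3p was detected on 3. The normalized signals of a list were summed and then put on the log2 scale, so that each value mostly follows the list's brightest members. For this list the value ran from -2.22 to -1.54 in the control arrays. It ran from -2.79 to -1.57 in the 1 mg/kg bw group and from -3.59 to -1.44 at 5 mg/kg bw. The value was -1.54 on control replicate 1 and -1.44 on 5 mg/kg bw replicate 3, the 2 highest of the 9 values. It was lowest on 5 mg/kg bw replicate 1, so at these arrays it ran opposite to miR-7a-5p. This followed miR-200a-3p, miR-200b-3p and miR-429-3p. On 5 mg/kg bw replicate 1, miR-200a-3p and miR-200b-3p were at the array's lowest detected signal (-6.27). miR-375-3p did not share this order. It was at the array's floor on control replicate 1 (-6.09), control replicate 3 (-5.93) and 5 mg/kg bw replicate 3 (-6.26), and highest on 1 mg/kg bw replicate 3 (-5.26).

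The choroid plexus list (miR-204-5p, miR-211-5p and miR-448-3p, 2 of 3 detected on all 9 arrays) summed to 1.62 to 2.29 in the control arrays, 2.42 to 3.13 at 1 mg/kg bw and 1.51 to 2.48 at 5 mg/kg bw, and was lowest on the same 2 arrays. The oligodendrocyte list (3 of 3 on all arrays) summed to 2.05 to 2.59, 2.34 to 2.67 and 1.53 to 2.75, lowest on 5 mg/kg bw replicate 1. The neuron list (5 of 5) summed to 7.34 to 7.54, 7.15 to 7.37 and 7.30 to 7.49, highest on the 2 arrays. Its members were split. The bright miR-124-3p and miR-128-3p were highest on these 2 arrays. In contrast, miR-138-5p was lowest on control replicate 1 (1.93) and highest on 5 mg/kg bw replicate 1 (2.61). miR-9-5p was highest on the 5 mg/kg bw arrays, at 4.45, 4.45 and 4.43 in replicates 1 to 3, and was 4.23 on control replicate 1. miR-9-3p was highest on 1 mg/kg bw replicate 3 (4.61), followed by 5 mg/kg bw replicate 3 (4.60) and control replicate 1 (4.55). The vessel wall list (4 of 4) summed to 2.57 to 2.70, 2.64 to 2.72 and 2.60 to 2.77, and the blood list (2 of 4, with miR-144-5p on none) to 1.60 to 1.94, 1.64 to 1.86 and 1.97 to 2.08. The part of tissue composition in the spread of the miR-7 arms was not tested, and in bulk tissue fewer cells of a type and less RNA per cell cannot be told apart.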

How the data were processed

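Total RNA of 9 hippocampi, 3 per group, was labelled with Cy3 and hybridized to Agilent mouse miRNA arrays (V19.0). The authors extracted the scans with Feature Extraction 10.7, and the deposited array files hold spot and background intensities, background-subtracted processed intensities, detection flags and a total per miRNA, not normalized between arrays. The authors also deposited a table of log2 values; the methods name GeneSpring 11.0, and its normalization is not given in the sources used here.

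Processed signals were averaged over the spots of a probe without outlier spots, summed over probes, divided by the array's 75th percentile (taken over the 395 miRNAs with a detection call on every array), raised to the array's lowest detected signal where below it, and put on the log2 scale. Changes were tested with limma 3.58.1 (R 4.3.3) over 3 groups and 9 arrays, with Benjamini-Hochberg adjustment over the 424 miRNAs detected on all 3 arrays of a group. The threshold was 0.05. Differences and correlations were tested by exact permutation. The fit was tested on simulated data. The number of arrays limits the precision. Labels call the samples independent experiments.

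The members and the marker lists were chosen with earlier results of these data known. The text names all arms, the 3 miRNAs most correlated with miR-7a-5p and with miR-671-5p, and the listed markers. miR-486-5p, planned as a blood marker, was not among the array's names, which left 4 miRNAs in that list. Replicate numbers do not pair the arrays: the deviations of same-numbered arrays had correlations between -0.65 and 0.74. Alternatives covered the signal, background, scaling, filter, test, blocks, single probes and left-out arrays. Sequences came from RefSeq.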

Additional observations from a re-analysis of the deposited data

How the results depend on the processing

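The settings below moved the sign or the side of the threshold of a log2 change, and the cause was not tested unless it is given. Leaving out 1 array at a time, the change at 5 mg/kg bw against control ran from -0.16 to 0.79 for miR-7a-5p, -0.16 to 0.67 for miR-7b-5p, -0.11 to 0.73 for miR-7a-2-3p, -0.066 to 0.0014 for miR-7a-1-3p, 0.11 to 0.33 for miR-7b-3p and -0.033 to 0.099 for miR-671-5p. At 1 mg/kg bw it ran from 0.17 to 0.67, 0.025 to 0.48, -0.026 to 0.51, -0.16 to -0.054, -0.14 to 0.076 and 0.062 to 0.19 for the same arms, and at 5 against 1 mg/kg bw from -0.65 to 0.30, -0.48 to 0.36, -0.35 to 0.41, 0.024 to 0.13, 0.17 to 0.32 and -0.15 to -0.032. The extremes of the miR-7 guides came without 5 mg/kg bw replicate 1 or 3 or control replicate 1 or 2. Likewise miR-7a-5p minus miR-671-5p ran from -0.21 to 0.77 at 5 mg/kg bw and -0.027 to 0.57 at 1 mg/kg bw, and miR-7a-5p minus miR-7a-2-3p from -0.13 to 0.057 at 5 mg/kg bw.

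The slide as a block, which leaves out 5 mg/kg bw replicate 3, gave 0.79 and 0.67 for miR-7a-5p and miR-7b-5p at 5 mg/kg bw, and 0.30, 0.36 and 0.41 for miR-7a-5p, miR-7b-5p and miR-7a-2-3p at 5 against 1 mg/kg bw. The row as a block gave these 3 arms -0.32, -0.32 and -0.13 at 5 mg/kg bw and -0.059, -0.18 and -0.046 at 1 mg/kg bw. On the first slide alone, chosen after the data were seen, it gave them 0.30, 0.37 and 0.53 at 5 against 1 mg/kg bw. Without both low arrays, the values were 0.46 and 0.38 for the guides at 5 mg/kg bw, 0.30, 0.36 and 0.41 for the 3 arms between doses, -0.026 for miR-7a-2-3p and -0.14 for miR-7b-3p at 1 mg/kg bw, and 0.28 for miR-7b-3p between doses.

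The total signal of the files, which for some arms holds another arm's signal, gave miR-7a-2-3p -0.56 and -0.49 at 5 and 1 mg/kg bw, miR-7a-1-3p 0.13 and 0.045, miR-7b-3p -5.49 at 5 mg/kg bw, 0.62 at 1 mg/kg bw and -6.12 between doses, miR-671-5p 0.27 at 1 mg/kg bw, 0.95 for miR-7a-5p minus miR-7a-2-3p at 5 mg/kg bw, and a correlation of these 2 arms of -0.029. The sum of the probe totals, chosen after the data were seen, gave -0.0073 for miR-7b-3p at 1 mg/kg bw, and the median scaling -0.0020. Normexp gave miR-7b-3p -0.036 and -0.065 and miR-671-5p -0.043 and -0.0061 at 5 and 1 mg/kg bw, and 0.21 for miR-7a-5p minus miR-7a-2-3p at 5 mg/kg bw, where the mean over probes gave 0.00039. Without scaling, miR-7a-1-3p changed by 0.084 and 0.016 at 5 and 1 mg/kg bw, and miR-7b-3p by 0.37 at 5 mg/kg bw, beside 0.31 with quantile normalization. The deposited log2 table gave miR-7b-3p 1.27 at 5 mg/kg bw and 1.04 between doses, and miR-7a-2-3p 0.20 between doses. The correlation of miR-7a-5p with miR-671-5p was 0.067 with normexp, 0.066 with the percentile over all miRNAs, 0.21 in the deposited table and 0.20 without the 2 farthest arrays, which left that with miR-7a-2-3p at 0.74.

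With the replicate block the change of miR-7a-5p stayed at 0.23 at 5 mg/kg bw (unadjusted p = 0.635 in limma), and it changed no call of the arms. In limma, the miRNAs at an unadjusted p under 0.05 numbered 14 to 120 at 5 mg/kg bw over the alternatives (40 as reported). The 120 came without 5 mg/kg bw replicate 3 or with the slide as a block. At 1 mg/kg bw they numbered 8 to 780 (33), and between doses 8 to 61 (16). The 780 came without a filter, with all 1247 miRNAs of the array entered and lower signals raised to each array's lowest detected signal. That floor was -6.09, -6.16 and -5.93 in the control arrays and -6.07, -6.61 and -6.68 at 1 mg/kg bw. Its part in the 780 was not tested. The arms near background, above all miR-7b-3p, are limited by their dim signal.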

Other observations

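The total signal per miRNA that the array files list did not always equal the sum of the totals of that miRNA's own probes. On each array, between 110 and 129 of the detected miRNAs differed by more than 1%. Of the arms described here, miR-7a-5p, miR-7b-5p, miR-7a-1-3p and miR-671-5p had a total equal to that of their own probes (within 0.01 units) on 9 of 9 arrays. For miR-7b-3p, the total equalled that of its own probes on the 3 arrays at 5 mg/kg bw, at 7.63 to 9.0 units, and on the other 6 arrays it equalled the total of miR-7a-5p plus that of 1 own probe, at 256 to 684 units. For miR-7a-2-3p, the total on control replicate 1 was 70.6 units, equal to that of miR-7a-1-3p plus 1 own probe, against 9.79 for its own 2 probes. On these totals the change of miR-7b-3p at 5 mg/kg bw was -5.49 on the log2 scale (adjusted p = 1.61e-05 in limma), against 0.25 in the signals reported.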
